A study of Mus musculus with 7 samples.

Results

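Macrophages take up, store and release iron, and 10 genes of iron handling were followed here in macrophages sorted from mouse tumours. They are Cp, Slc40a1, Tfrc, Trf, Slc11a1, Slc11a2, Fth1, Ftl1, Ncoa4 and Ireb2, taken by name from the 53379 rows of the deposited count table, and all 10 were among the 16234 genes with enough counts to test. Cp was chosen by its measured level, which was higher in knockout mice, so its difference between the genotypes is described without a test, and the other 9 were picked as genes of the same pathway. The cells were sorted as positive for CD45, CD11b and F4/80 from tumours of the mouse colon carcinoma line MC38, 21 days after implantation. Both groups were C57BL/6J mice on a high-fat diet, 4 wild-type and 3 lacking Gpr65, a G protein-coupled receptor activated by acid outside the cell. Each library came from its own mouse, and the mice shared the diet and the tumour line, so neither was compared. Age and sex of the mice, and the cells in which Gpr65 was deleted, do not appear in the sources at hand.

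Iron enters a macrophage bound to transferrin through the transferrin receptor, or with engulfed red cells and debris. It is kept in ferritin, a shell of heavy and light chains, and leaves through ferroportin, the only known mammalian iron exporter, with the help of a copper enzyme that oxidises it. Iron regulatory proteins bind hairpins called iron-responsive elements in several of these mRNAs. In iron-poor cells this binding blocks translation of the mRNAs that carry the hairpin before the coding region, and protects the transferrin receptor mRNA, which carries several behind it.

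The hairpins are shown because this control acts through them, and a read count sees it only in part, since a block of translation need not alter the mRNA level. Annotated UTRs of GENCODE M21 transcripts (GRCm38) were searched on the sense strand for the letters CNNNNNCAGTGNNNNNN, with the 5 bases on each side of the CAGTGN loop able to pair, G with T included. The motif was found in 4 of the 10 members, against 160 of 21175 genes with an annotated UTR (0.756%). Each line gives the element with 6 bases on either side, 5′ to 3′ in DNA letters, with the bulged C and the loop in capitals:
Fth1, 5′ UTR, chr19:9982732-9982760, plus strand: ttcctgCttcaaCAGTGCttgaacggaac
Ftl1, 5′ UTR, chr7:45459779-45459807, minus strand: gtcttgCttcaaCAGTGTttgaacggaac
Slc40a1, 5′ UTR, chr1:45925465-45925493, minus strand: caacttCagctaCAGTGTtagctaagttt
Tfrc, 3′ UTR, chr16:32631219-32631247, plus strand: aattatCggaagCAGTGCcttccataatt
Tfrc, 3′ UTR, chr16:32631598-32631626, plus strand: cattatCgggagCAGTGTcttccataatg
Tfrc, 3′ UTR, chr16:32631663-32631691, plus strand: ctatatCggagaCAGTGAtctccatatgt
Tfrc, 3′ UTR, chr16:32631710-32631738, plus strand: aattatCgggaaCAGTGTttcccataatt
Both ferritin chains carried the same stem letters next to the loop, and the 4 elements of Tfrc lay together in its last exon. No match in the other members says only that their annotated UTRs lack these letters with all 5 pairs beside the loop. An element with a mismatch in that stem would be missed.

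Libraries held 22449772 to 30483733 counts. Gpr65 measured 90.9 ± 19.4 CPM (SD, n = 4) among wild-type and 0.921 ± 0.215 CPM (SD, n = 3) among knockout mice, where CPM denotes counts scaled to library size with TMM factors. The markers of the sort, Ptprc for CD45, Itgam for CD11b and Adgre1 for F4/80, were present in each library, with the lowest value at 121 CPM for Itgam. Knockout mouse 1 stood apart, with 0 counts in 940 of the tested genes against 51 to 281 in the other 6 libraries. For some genes the value without that mouse is therefore given as well. Fewer cells of a type and less RNA per cell cannot be told apart in such bulk libraries. Markers of other cells in the sort varied between mice, with T cell markers summing to 17.8 to 87.8 CPM in 6 libraries and to 401 CPM in knockout mouse 3, and fibroblast and endothelial markers to 95.2 to 386 CPM.

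Measured per kilobase of exon, the 10 genes differed widely, and in their mean over all mice Fth1 ranked 14 and Slc40a1 14142 of 16216 genes with a known length. The ferritin heavy chain Fth1 had the highest level in each of the 7 mice, at 2783 ± 388 CPM per kb (SD, n = 4) among wild-type and 2990 ± 683 (SD, n = 3) among knockout mice. Ftl1 and Slc11a1 came next in wild-type mice, at 104 ± 27.1 and 59.9 ± 17.2 CPM per kb, and the ranges of these neighbours overlapped. Trf, Tfrc and Slc11a2 followed at 11 ± 6.82, 7.87 ± 1.71 and 5.54 ± 0.636 CPM per kb, each overlapping the next. Below them lay Ireb2 at 3.47 ± 0.516 and Ncoa4 at 1.73 ± 0.107, whose ranges overlapped neither each other nor those of their neighbours. The exporter side was the lowest, with Cp at 0.639 ± 0.128 and Slc40a1 at 0.470 ± 0.392, and these again overlapped.

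**Figure D1:**
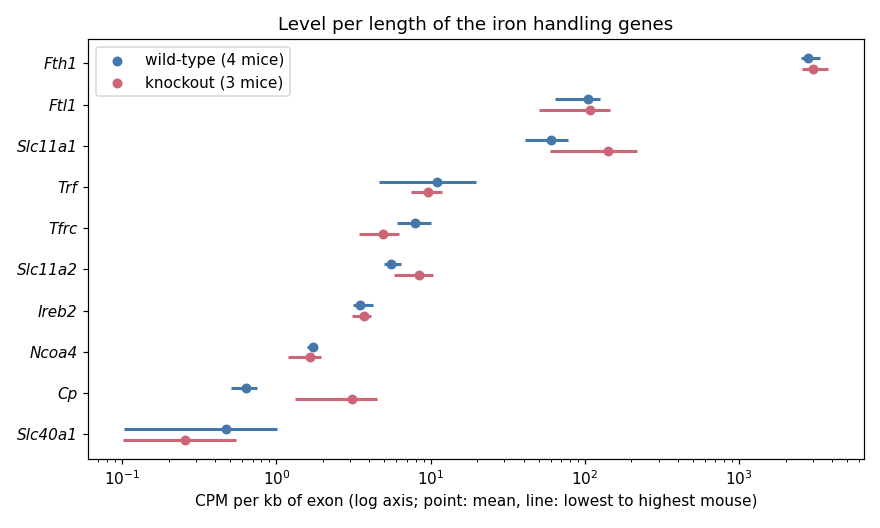
Level of each gene in CPM per kb of exon (log axis), with the mean as a point and the lowest to highest mouse as a line, in 4 wild-type and 3 knockout mice. Fth1 lies above all other members and Slc40a1 has the lowest mean, while the line of Cp in knockout mice lies above its line in wild-type mice.

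In knockout mice the order was the same at both ends, with Fth1 first and Slc40a1 last. Cp stood at rank 8 of 10 by its mean of 3.11 ± 1.62 CPM per kb and overlapped Ncoa4, which was at 1.66 ± 0.414. Slc11a1 was second at 142 ± 79.0 CPM per kb and overlapped Ftl1, at 108 ± 50.2. The places of Ftl1 and Ncoa4 in both orders are uncertain, since they rest on single rows whose near-identical copies, described below, held more counts. The place of Trf is uncertain as well, since most of its annotated sequence also lies in an overlapping gene, described below. Exon lengths are the union of all annotated exons, so a gene whose long forms are not used here has too low a level on this scale.

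Ceruloplasmin, the product of Cp, is the ferroxidase that loads iron leaving the cell onto transferrin, and macrophages make a membrane-anchored form. Cp measured 7.16, 7.18, 4.88 and 5.23 CPM in wild-type mice 1 to 4, from 143 to 186 counts. In knockout mice 1 to 3 it measured 12.5, 34.0 and 42.7 CPM, from 367, 835 and 1162 counts. The 4 wild-type mice lay close together, within a 1.47-fold range, whereas the knockout mice spanned 3.41-fold with mouse 1 the lowest. The means were 6.11 ± 1.23 (SD, n = 4) and 29.7 ± 15.5 CPM (SD, n = 3), a ratio of 4.87 and a log2 fold change of 2.28 (SE 0.39). Without knockout mouse 1 the ratio was 6.28, and without knockout mouse 3 it was 3.81.

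**Figure D2:**
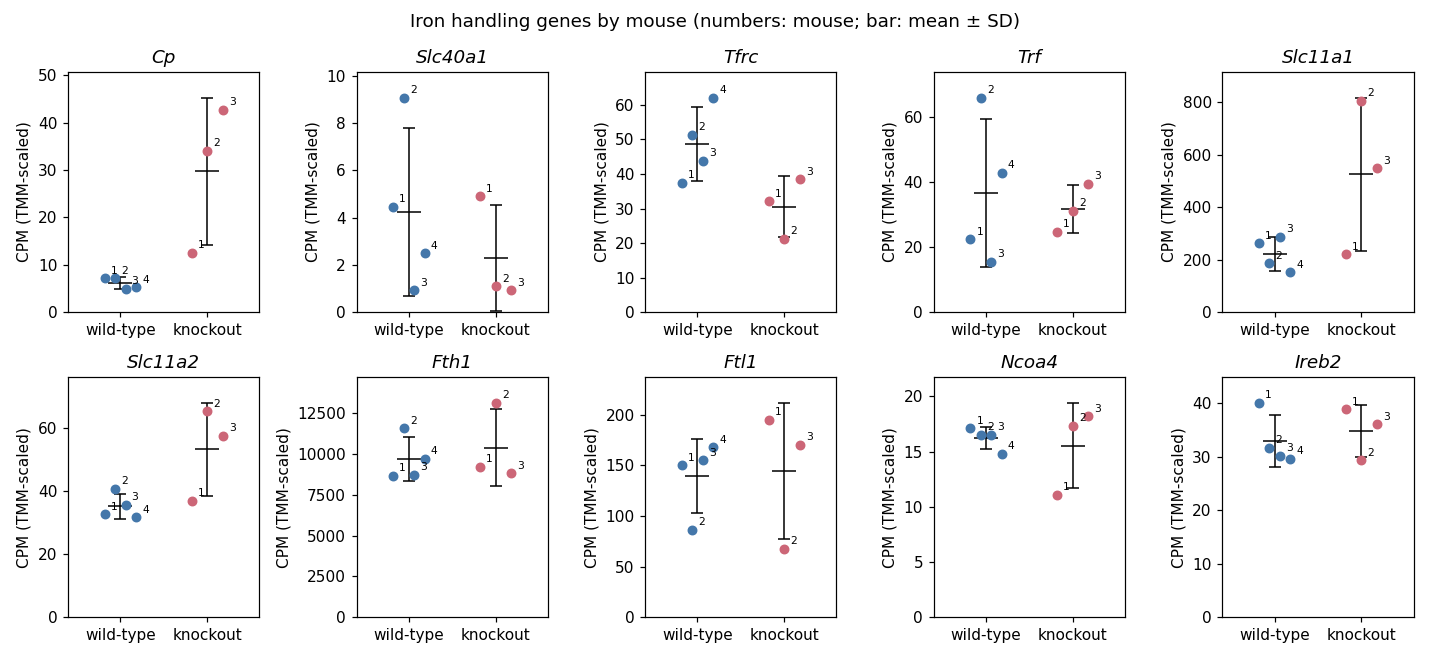
TMM-scaled CPM of the 10 genes in each mouse (numbered points), with the mean and SD of 4 wild-type and 3 knockout mice. Only for Cp, which was picked for it, do the groups not overlap, and knockout mouse 1 lies within the wild-type range for Slc11a1 and Slc11a2.

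Cp lies on chromosome 3 (19957054 to 20009145, plus strand, GRCm38), and its last 13201 bases overlap Hps3 on the opposite strand, a gene of lysosome-related organelle biogenesis. That overlap is of whole genes with their introns, and how much of it is exon in both was not measured. No source states if strand was used in counting, so how reads from exon shared by the pair were assigned is not known. Hps3 measured 58.0 ± 10.6 CPM (SD, n = 4) among wild-type and 60.7 ± 19.2 (SD, n = 3) among knockout mice, a log2 fold change of 0.07 (SE 0.24, edgeR adjusted p = 1). The next tested genes did not pass either, with Hltf at -0.01 (SE 0.33), Pde7a at 0.11 (SE 0.22) and Mtfr1 at -0.32 (SE 0.31), each with an adjusted p of 1. No 50-base word of the annotated Cp transcripts occurs in a transcript of another gene.

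Cp and the transferrin gene Trf are best known from the liver, and hepatocyte markers were at or near 0. Of 7 such markers Alb, Ttr, Serpina1a, Fgb and Ahsg had 0 counts in all 7 libraries, and the sum of the list was 0.365 to 0.796 CPM in wild-type and 0.478 to 1.10 CPM in knockout mice. Variation of Cp between mice of the same genotype was compared with that of 8428 other named coding genes, as deviations of log2 CPM from the group mean over the 7 libraries. The closest were Abcg3 (Pearson r = 0.994), Plekha1 (0.983), Rock1 (0.976), Zfp943 (0.973) and Mier1 (0.968). Each was lowest in knockout mouse 1 among the knockout mice, as Cp was, and r over 7 libraries is a description. None of the 5 shared the genotype difference of Cp, with log2 fold changes of -0.62 to 0.06.

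Ferroportin, encoded by Slc40a1, was a rare transcript with a wide spread. It measured 4.45, 9.07, 0.929 and 2.49 CPM in wild-type mice 1 to 4 and 4.89, 1.10 and 0.919 CPM in knockout mice 1 to 3, from 25 to 235 counts per library. Wild-type mouse 3 was as low as knockout mice 2 and 3, and knockout mouse 1 was above 3 of the 4 wild-type mice, so the groups overlapped. Knockout mice differed by -0.87 on the log2 scale (SE 0.83, edgeR adjusted p = 1). The value was -2.09 without knockout mouse 1 and -0.18 without wild-type mouse 2. Knockout mouse 1 thus had the lowest Cp and the highest Slc40a1 of its group.

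Of the 9 members other than Cp, 0 passed an adjusted p of 0.05 by edgeR, by DESeq2 or by limma voom. By edgeR 0.037% of all 16234 tested genes passed, 0.0246% as higher and 0.0123% as lower in knockout mice. That share is 6 genes, and 114 genes passed by DESeq2 and 9 by limma voom. At an unadjusted p under 0.05, 3 of the 9 stood out by edgeR, Slc11a1, Slc11a2 and Tfrc, where 5.37% of all genes did. Slc11a1 and Slc11a2 had positive fold changes, as did 2.57% of genes at that level, and Tfrc a negative one, as did 2.79%. DESeq2 and limma voom also had 3 of the 9, where 6.67% and 9.83% of all tested genes were at that level. The members were chosen with earlier results of these data known, so this share is a description. Their fold changes were positive in 5 and negative in 4, with a median of 0.05 against -0.002 over all tested genes. In each of the 9 the groups overlapped, whereas 6.12% of all tested genes had groups without overlap, and 2.8% had all knockout mice higher, as Cp did. A p that misses the threshold does not show that the groups are alike.

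Iron uptake was represented by the receptor, its ligand and the transporters that move iron out of endosomes and phagosomes. The transferrin receptor Tfrc measured 37.4, 51.3, 43.8 and 62.1 CPM in wild-type mice 1 to 4 and 32.1, 21.2 and 38.4 CPM in knockout mice 1 to 3. Knockout mice 1 and 2 lay below the wild-type range, and knockout mouse 3 lay just above wild-type mouse 1. On the log2 scale the difference was -0.67 (SE 0.25, edgeR adjusted p = 0.89) and stayed between -0.87 and -0.47 with any one mouse left out. Dividing cells and erythroid cells are rich in this receptor. The summed CPM of 10 proliferation genes ranged from 445 to 1250 across wild-type mice and from 611 to 1160 across knockout mice, and the 8 erythroid markers in the table summed to at most 0.998 and 1.30 CPM.

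Of the 8 MC38 and epithelial markers 3 had enough counts to test, and 0 of these passed, where 0.037% of all tested genes did. The part of the 8 markers in the Tfrc values was not tested. The 8 markers summed to 126 to 451 CPM in wild-type and 41.9 to 168 CPM in knockout mice. All 8 had at least 1 count, and Cdh1 made up nearly all of the sum, at 123 to 437 and 37.6 to 167 CPM. Epcam, a defining epithelial gene, measured 2.41 to 5.30 CPM in wild-type and 1.61 to 3.74 CPM in knockout mice. The 3 tested markers all had negative log2 fold changes, with Epcam at -0.74 (SE 0.44), Cdh1 at -1.51 (SE 0.61) and the low Krt18 at -3.92 (SE 1.47). Krt18 was 4.42 CPM in wild-type mouse 4 and at most 0.915 CPM in any other library. That mouse was also the highest in Krt8, Krt19, Cldn4, Epcam, Cdh1 and Tfrc, whereas Krt20 and Cldn7 were highest in other mice.

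Transferrin mRNA (Trf) varied 4.26-fold among wild-type mice, from 15.4 CPM in mouse 3 to 65.8 CPM in mouse 2, with mice 1 and 4 at 22.3 and 42.7. Knockout mice 1 to 3 measured 24.6, 31.1 and 39.3 CPM, all inside the wild-type range. The difference of -0.21 on the log2 scale (SE 0.45, edgeR adjusted p = 1) became 0.24 without wild-type mouse 2. Trf shares its strand and most of its length with Gm20425, a longer annotated gene that held 2 counts over all libraries.

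The 2 members of the Slc11 family of proton-coupled metal transporters had higher means in knockout mice, with overlapping groups. Slc11a1, also called Nramp1, pumps metal out of the phagosome in macrophages. It measured 263, 186, 287 and 152 CPM in wild-type mice 1 to 4 and 221, 805 and 549 CPM in knockout mice 1 to 3. Knockout mice 2 and 3 lay above the wild-type range and knockout mouse 1 in its middle. Slc11a1 had a log2 fold change of 1.24 (SE 0.40, edgeR adjusted p = 0.79), which was 1.59 without knockout mouse 1 (adjusted p = 0.087) and 0.79 without knockout mouse 2. C57BL/6 mice are known to carry a form of this gene whose protein does not function, which a read count does not show.

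Slc11a2, or DMT1, moves iron from endosomes into the cytosol after transferrin uptake. It measured 32.7, 40.7, 35.7 and 31.7 CPM in wild-type mice 1 to 4 and 36.9, 65.3 and 57.6 CPM in knockout mice 1 to 3. The same pair of knockout mice as for Slc11a1 was above the wild-type range. Slc11a2 had a log2 fold change of 0.60 (SE 0.21, edgeR adjusted p = 0.84), and 0.79 without knockout mouse 1 (adjusted p = 0.16). Adgre1, the F4/80 gene used for the sort, showed the same order of mice in the knockout group, at 495, 1332 and 802 CPM against 327 to 661 CPM in wild-type mice, and its part in these values was not tested. The 7 sorted-cell markers together summed to 4363 to 6428 CPM in wild-type and 4782 to 7698 CPM in knockout mice.

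For iron storage the difference was within the spread between mice. Fth1, the chain with ferroxidase activity, took 0.851% to 1.08% of all counts in each library. It measured 8659, 11542, 8723 and 9697 CPM in wild-type and 9205, 13100 and 8812 CPM in knockout mice, a log2 fold change of 0.10 (SE 0.23, edgeR adjusted p = 1). Wild-type mouse 2 and knockout mouse 2 were the highest of their groups, and without knockout mouse 2 the fold change was -0.10.

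The light chain, which helps to lay down the iron core, needs its gene copies beside it. Of the 50-base words in annotated Ftl1 transcripts, 50.9% also occur in 1 or more of 15 other annotated genes, most in Ftl1-ps1 (47.3%), Gm15590 (22.3%) and Ftl2-ps (19.1%). Ftl1 itself measured 150, 86.3, 155 and 168 CPM in wild-type and 195, 67.9 and 170 CPM in knockout mice, whereas the row named Ftl1-ps1 on chromosome 13, a pseudogene by name that the annotation types as coding, held 506 to 766 CPM. Counts of a row in this family are uncertain, since the authors' counting may have split or dropped reads that match several copies.

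**Figure D3:**
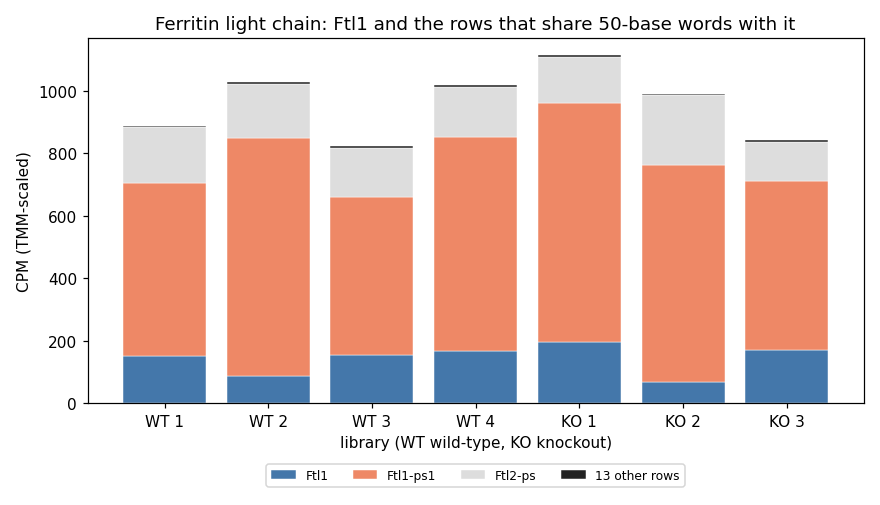
Summed TMM-scaled CPM of Ftl1 and the 15 annotated genes that share 50-base words with it, stacked for each of the 7 libraries. Ftl1-ps1 holds the largest part in each library, and the height of the stack, 822 to 1113 CPM, varies less than its Ftl1 part.

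Summed over these 16 rows the light chain group measured 887, 1026, 822 and 1019 CPM in wild-type and 1113, 990 and 842 CPM in knockout mice. The sum spanned a narrow range, and the share of Ftl1 in it ranged from 6.86% in knockout mouse 2 and 8.41% in wild-type mouse 2 to between 16.4% and 20.2% in the other 5. The lowest shares were thus in the mouse of each group with the highest Fth1. The log2 fold change of Ftl1 was 0.05 (SE 0.36, edgeR adjusted p = 1) and that of Ftl1-ps1 0.09 (SE 0.21, adjusted p = 1). Fth1 had 10.3 ± 0.795 (SD, n = 4) counts for each count of the light chain group among wild-type and 10.7 ± 2.48 (SD, n = 3) among knockout mice. Fth1 shared 1.59% of its words with 1 gene, Gm6977, a processed pseudogene on the X chromosome. Gm6977 held 779 ± 175 (SD, n = 4) and 865 ± 144 CPM (SD, n = 3). It was left out of that ratio, whereas the light chain group included its copies.

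Ncoa4 is the receptor that takes ferritin to the lysosome, where its iron is set free. It was the steadiest member in wild-type mice, at 17.1, 16.5, 16.5 and 14.8 CPM, and measured 11.1, 17.3 and 18.2 CPM in knockout mice. Knockout mouse 1 was the lowest of the 7, and the groups differed by -0.06 on the log2 scale (SE 0.22, edgeR adjusted p = 1), or by 0.12 without that mouse. Its processed copy Gm6768 holds 17.9% of the Ncoa4 words and more counts than Ncoa4, 44.2 ± 6.47 (SD, n = 4) and 41.7 ± 10.6 CPM (SD, n = 3), so the level of Ncoa4 is uncertain too. Ireb2, which encodes iron regulatory protein 2, measured 40.1, 31.7, 30.2 and 29.6 CPM in wild-type and 38.9, 29.4 and 36.1 CPM in knockout mice. Its log2 difference was 0.08 (SE 0.18, edgeR adjusted p = 1).

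The wider pathway was read from 50 further genes of iron and haem handling, of which 38 were tested. By edgeR 0 passed the adjusted threshold, where 0.037% of all tested genes did. An unadjusted p under 0.05 was reached by 2 of the 38, where 5.37% of all tested genes reached it. DESeq2 had 4 of the 38 at that level, where it had 6.67% of all tested genes. It also called 0 of the 38, where it called 114 of all tested genes. The groups did not overlap in 4 of the 38, where they did not for 6.12% of all tested genes. Of these Spic, Uros and the cysteine desulphurase gene Nfs1 were higher in each knockout mouse, and Fbxl5, whose product marks iron regulatory protein 2 for degradation, was lower in each. Fold changes were positive in 21 and negative in 17, with a median of 0.03. Of the 12 that were not tested 6 had 0 counts throughout, among them Hephl1, a ferroxidase related to Cp, and the other related ferroxidase, Heph, reached at most 0.270 CPM.

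Among uptake genes and iron reductases 3 of 10 had a positive and 7 a negative fold change. The highest expressed were Lrp1, a receptor for haem bound to haemopexin, at 899 ± 277 (SD, n = 4) and 603 ± 125 CPM (SD, n = 3), and the endocytosis adaptor Picalm, at 281 ± 39.9 and 280 ± 61.0 CPM. Lrp1 had a log2 fold change of -0.57 (SE 0.28, edgeR adjusted p = 0.98). Hfe, the haemochromatosis protein that binds the transferrin receptor, measured 217 ± 98.6 and 185 ± 43.0 CPM. It was the 1 tested gene of 8 listed for iron export and hepcidin. Hepcidin itself (Hamp) reached at most 0.786 CPM.

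Among the other regulators 2 of 5 had a positive and 3 a negative fold change. Aco1, iron regulatory protein 1, measured 68.9 ± 4.71 CPM (SD, n = 4) among wild-type mice, while knockout mice 1 to 3 had 31.8, 69.0 and 56.8 CPM, with the lowest value in mouse 1. Its log2 difference was -0.39 (SE 0.25, edgeR adjusted p = 1), or -0.15 without that mouse and -0.64 without knockout mouse 2. The iron chaperone Pcbp1 was even, at 401 ± 16.7 (SD, n = 4) and 425 ± 39.2 CPM (SD, n = 3).

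Haem genes were divided, 8 of 14 with a positive fold change. Spic, the transcription factor of red pulp macrophages that recycle red cells, was the largest of them. It measured 0.416, 0.386, 0.796 and 0.329 CPM in wild-type and 1.30, 3.46 and 2.28 CPM in knockout mice, so the knockout mice lay above all wild-type mice, as for 2.8% of all tested genes. Its log2 fold change of 2.27 (SE 0.58) did not pass (edgeR adjusted p = 0.73, and 0.056 to 1 over the alternatives). Uros, an enzyme of haem synthesis, had 0.55 (SE 0.24, edgeR adjusted p = 0.92), at 10.4 ± 1.89 (SD, n = 4) and 15.3 ± 3.05 CPM (SD, n = 3).

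Haem oxygenase Hmox1, which frees iron from haem, had a log2 fold change of -0.33 (SE 0.29, edgeR adjusted p = 1), at 277 ± 57.6 (SD, n = 4) and 220 ± 85.1 CPM (SD, n = 3). That value was -0.64 without knockout mouse 1 and -0.07 without knockout mouse 3. Nfe2l2, which encodes the oxidative stress factor Nrf2 that is known to act on the ferritin, ferroportin and Hmox1 genes, had 0.52 (SE 0.23, adjusted p = 0.93), with knockout mice 2 and 3 at 640 and 602 CPM against 299 to 466 in wild-type mice and 379 in knockout mouse 1. All 8 tested genes of mitochondrial iron use had log2 fold changes above 0, as did 49.7% of all tested genes. The lowest were Slc25a37 and Glrx5, both at 0.03. The median of the 8 was 0.18 against -0.002 over all tested genes. By edgeR 0 of the 8 passed, where 0.037% of all tested genes did. By the mean over all 7 mice the highest expressed of them were Iscu, the scaffold of iron-sulphur clusters, at 65.8 ± 10.3 and 74.1 ± 12.5 CPM, and Glrx5, at 59.8 ± 13.1 and 60.8 ± 15.9 CPM.

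**Figure D4:**
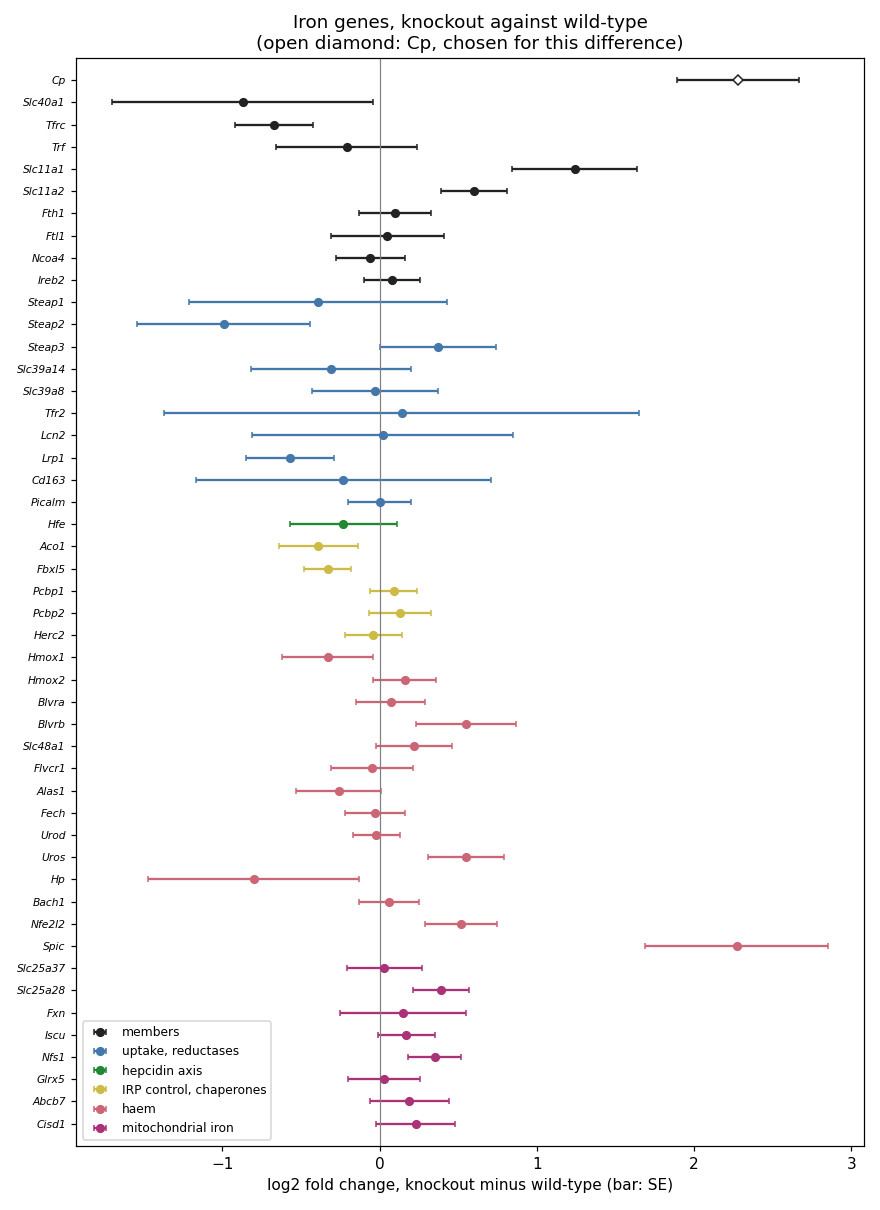
Log2 fold change of knockout minus wild-type (SE as bars) for the 10 members and the 38 tested further iron genes, coloured by role. Cp, drawn as an open diamond, was chosen for this difference, and none of the other genes passed an adjusted p of 0.05.

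**Figure D5:**
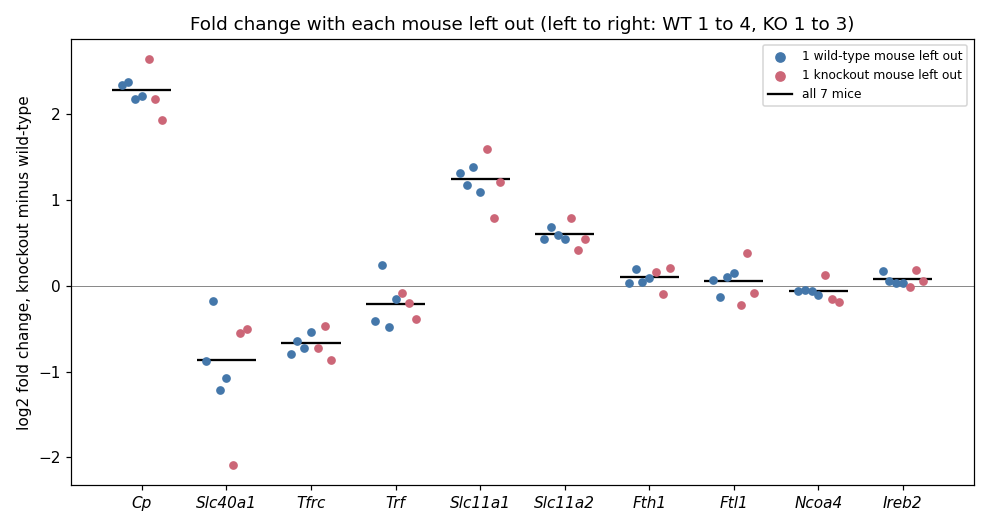
Log2 fold change of each member with all 7 mice (line) and with each mouse left out (points). Slc40a1 moves from -0.87 to -2.09 without knockout mouse 1 and to -0.18 without wild-type mouse 2, while Tfrc, Slc11a1 and Slc11a2 keep their sign without any one mouse.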

How the data were processed

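RNA-seq libraries of 4 wild-type and 3 Gpr65 knockout mice were analysed, made from polyA RNA with a SMART-seq kit, per the labels' protocols. The authors deposited raw read counts per gene without normalization. GRCm38 is the build in the submitters' processing notes, which list DESeq2 1.24.0, BWA 0.7.12, FastQC 0.11.5 and cutadapt 1.15 without a role. The program that assigned reads to genes, its strand setting and its treatment of multiple matches are not given in the sources used here. Genes were named by identifier from GENCODE M21, which 53274 of 53379 matched. Rows without a symbol held 0.000338% of counts.

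Genotypes were compared over all 16234 tested genes with the quasi-likelihood F test of edgeR 4.0.16 (R 4.3.3, robust, TMM, default filter on low counts, Benjamini-Hochberg, threshold 0.05), and only iron genes are reported. SE is the fold change over the root of F. The edgeR test was also run on simulated counts, and the outcome is not reported here. Alternatives were other scalings and filters, DESeq2 1.42.0, limma 3.58.1 voom with weights, a fit that is not robust, a block for mouse number, leaving out each library and a threshold of 0.1.

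Members and lists were chosen with earlier results of these data known. Named were the members, Gpr65, the 2 highest expressed genes of each further list with any at an unadjusted p under 0.05, ferritin copies with at least 1 CPM, 2 neighbours of Cp on each side and the 5 genes closest to Cp in within-group deviation (mean log2 CPM of at least 3, prior count 2). Other names were chosen after their values were seen. Pairs of libraries within a group differed far beyond sampling noise (chi-square per degree of freedom 29.9 to 324).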

Additional observations from a re-analysis of the deposited data

Results flagged for a closer look

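A single mouse lay far from the rest of the wild-type group in 1 of 31 quantities looked at, where chance gives about 1 in 20. The summed CPM of the 10 neutrophil markers was 215 in wild-type mouse 2, against 83.6 to 102 in the other wild-type mice and 88.0 to 184 in knockout mice, a gap of 0.86 of the wild-type range. In that mouse Csf3r made up 100 CPM of it and Retnlg 48.6 CPM. The knockout sums were mostly Csf3r, at 65.7, 181 and 133 CPM, while Retnlg was at most 0.551 CPM there. Of the 7 tested markers Csf3r had a positive fold change and the other 6 a negative one. By edgeR 0 of the 7 were called, where 0.037% of all tested genes were. The defining marker Ly6g had 0 counts in all libraries. Wild-type mouse 2 also had the highest Trf and Slc40a1, at 65.8 and 9.07 CPM, and the part of these markers in those values was not tested.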

How the results depend on the processing

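The count of 0 for the 9 members other than Cp and for the further iron genes held in all 16 alternatives. The count over all genes, 6, was 11 without a filter on low counts, 114 by DESeq2, 1 with the mouse number as a replicate block, and 3 to 14 with 1 library left out (3 without knockout mouse 2, 14 without knockout mouse 1). Same-numbered mice were separate animals whose deviations correlated at 0.0509 to 0.0882. Without values for differently numbered mice beside them, these do not settle whether the numbers mark shared handling. The log2 fold change of Cp was 1.93 to 2.64, and Slc40a1, Tfrc, Slc11a1, Slc11a2, Spic and Uros kept their sign throughout. The sign turned for 8 of the 21 single genes. By limma voom these were Ftl1 at -0.29, Trf at 0.55, Ncoa4 at 0.05, Hfe at 0.24 and Glrx5 at -0.01. With the block they were Trf at 0.13 and Picalm at 0.05, and Picalm was 0 to 2 decimals by DESeq2 and with DESeq2 or upper-quartile factors. With 1 library left out the ranges were -0.10 to 0.21 for Fth1, -0.23 to 0.38 for Ftl1, -0.48 to 0.24 for Trf, -0.02 to 0.18 for Ireb2, -0.19 to 0.12 for Ncoa4, -0.16 to 0.15 for Picalm, -0.42 to 0.09 for Hfe and -0.23 to 0.14 for Glrx5. The cause was not tested. Slc40a1 rested on 25 to 235 counts per library, and its spread between mice (CV 83.4% in wild-type and 97.4% in knockout mice) left its fold change imprecise.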
